A study of Bos taurus with 14 samples.

Results

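The 3 miRNAs described here, miR-451, miR-144 and miR-486, are best known from red blood cells. They were taken by name as bta-miR-144, bta-miR-486 and the bovine and human names of miR-451, bta-miR-451 and hsa-miR-451a. These are 4 of the 932 bovine (bta) and human homologue (hsa) miRNA names listed in at least 1 of 14 libraries. All 4 names were listed in every library, among 642 names in plasma and 916 in leucocytes. Reads that match several names are divided among them, so the divided reads of bta-miR-451 and hsa-miR-451a were summed and are called miR-451 below.

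Small RNA was sequenced from blood of 4 ruminally cannulated, non-lactating Holstein cows, whose ages the labels do not give. Each cow was sampled on a diet of forage only (FD, 0% concentrate) and again in the first week of a high-grain diet (HG, 65% concentrate) that was fed to lower rumen pH. The 8 plasma libraries came from cows 1 to 4 and the 6 leucocyte libraries from cows 1, 3 and 4, with 1 library per cow, diet and sample type. All cows moved from FD to HG in that order, without a group kept on forage, so diet and time cannot be told apart. Leucocytes were the buffy coat of EDTA blood, with no step that isolated single cell types, and plasma was spun a second time. Plasma and leucocyte RNA were extracted with different kits, so that sample type cannot be told apart from kit or from depth.

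MiR-451 and miR-144 are cut from 1 shared primary transcript, which the factor GATA1 switches on as red cells mature. MiR-451 is unusual in that its precursor is too short for Dicer and is sliced by AGO2 instead, whereas miR-144 takes the usual route through Dicer. MiR-451 represses YWHAZ (14-3-3 zeta) and protects red cells from oxidative stress, and miR-144 represses NRF2, a master regulator of the antioxidant response. MiR-486 lies within ANK1, the gene of the red cell membrane protein ankyrin, and promotes red cell survival and proliferation of progenitors. Since mature red cells keep these miRNAs and outnumber all other blood cells, all 3 are read widely as signs of red cell RNA in plasma.

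In the library files, bta-miR-451 was placed on chromosome 19 of UMD3.1 at chr19:20796875-20796897 on the minus strand, and hsa-miR-451a at the same start and ended 1 base earlier, at 20796896. The interval of bta-miR-144 was chr19:20797071-20797092 on the same strand, with 173 bases between both mature miRNAs. In the RefSeq annotation of a later assembly, ARS-UCD2.0, MIR451 and MIR144 were next to each other, outside any other gene, and between ERAL1 and FLOT2. The interval of bta-miR-486 was chr27:36261849-36261870 on the minus strand, and MIR486 lay within ANK1 in RefSeq. Including these, 5 names in the libraries came from these precursors or from mir-4732, and the fifth was hsa-miR-486-5p. Its read count equalled that of bta-miR-486 in 14 of 14 libraries, so each name received an equal part of the same reads, and the levels of bta-miR-486 below are those of its part alone.

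Between 376589 and 4464702 reads per plasma library were assigned to miRNAs, which was 39.3% to 72.0% of the reads analysed. In leucocytes it was between 21764579 and 66070770 reads, or 83.4% to 91.7%. The levels below are percentages of the reads assigned to miRNAs, and counting error was small beside the differences between cows. For the lowest count, 918 reads of bta-miR-144 in the FD plasma of cow 1, the share of 0.244% had a 95% Wilson interval of 0.229% to 0.260%. The paper's methods mention no molecular identifiers, so that copies of 1 molecule may be counted as several reads, and such an interval covers counting error alone.

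MiR-451 was the most read bovine name in 6 of 6 leucocyte libraries. It held 35.9%, 33.5% and 23.6% of miRNA reads on FD in cows 1, 3 and 4, and 35.5%, 30.8% and 26.4% on HG. Cow 4 was lowest on both diets, and both groups overlapped. In plasma, miR-451 held 12.5%, 12.4%, 4.25% and 5.17% on FD in cows 1 to 4, and 4.35%, 12.8%, 13.3% and 5.04% on HG. Its rank in plasma ran from 1 to 6. Every plasma library lay below every leucocyte library, as was the case for 17.7% of the 796 names tested between sample types.

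MiR-144 was read far less than miR-451 from the same transcript. In leucocytes it held 1.13%, 0.822% and 0.396% of miRNA reads on FD in cows 1, 3 and 4, and 0.550%, 0.352% and 0.321% on HG. In plasma it held 0.244%, 0.158%, 0.0790% and 0.0915% on FD in cows 1 to 4, and 0.0800%, 0.233%, 0.268% and 0.0831% on HG. Its rank among bovine names was 20 to 44 in leucocytes and 59 to 92 in plasma, and the sample types did not overlap.

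MiR-486 differed least between the sample types. The bovine name held 1.83%, 1.99% and 2.89% of miRNA reads on FD in leucocytes of cows 1, 3 and 4, and 3.29%, 2.44% and 3.18% on HG. In plasma it held 1.89%, 2.98%, 2.30% and 2.67% on FD in cows 1 to 4, and 0.614%, 2.17%, 1.80% and 2.55% on HG. The HG plasma of cow 1 was far below the other 7 plasma libraries, whose levels fell within the range of the leucocyte libraries or just below it.

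**Figure D1:**
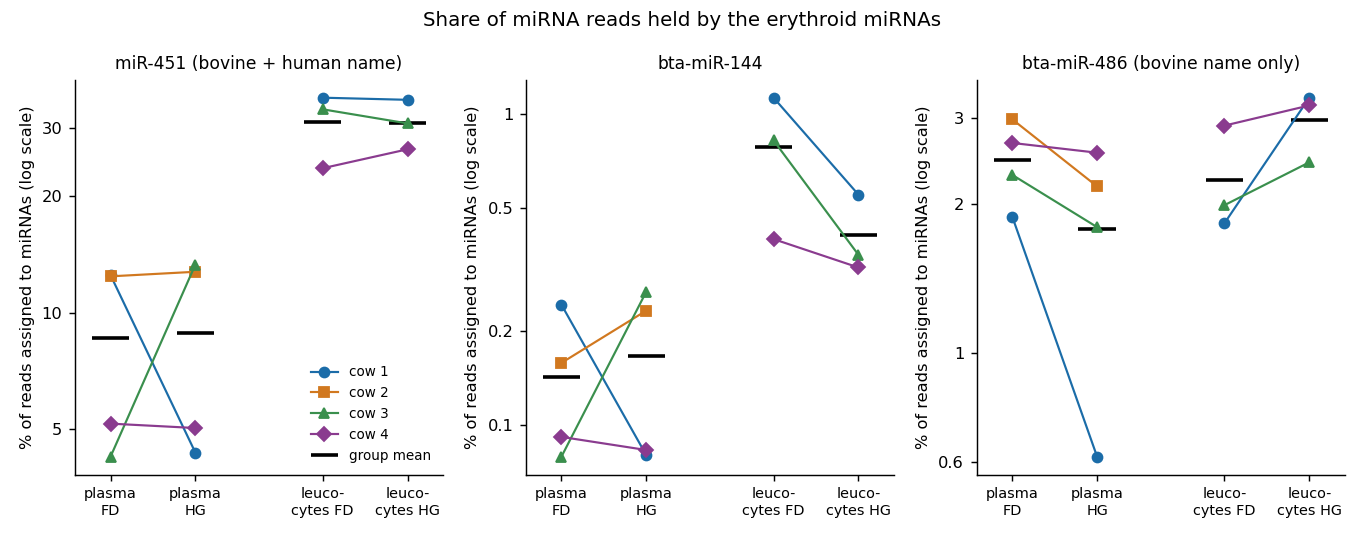
Percentage of the reads assigned to miRNAs held by miR-451, bta-miR-144 and bta-miR-486 (log scale) in each library, with lines that join both diets of a cow and black bars for group means. MiR-451 and miR-144 were lower in all plasma libraries than in all leucocyte libraries, and miR-144 fell in the leucocytes of 3 of 3 cows.

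The sample types were compared with edgeR's quasi-likelihood test over all 14 libraries, with the cow as a term. Both diets of a cow count here as separate libraries of a sample type, though only 4 cows gave plasma and 3 gave leucocytes. Differences between cows in the contrast of sample types have no term of their own, so its p-values can be too small. Of 796 names, 372 were called at an adjusted p under 0.05 (46.7%), and 213 of them were lower in plasma (26.8%). All 3 members were among these. MiR-451 was lower in plasma by a log2 fold change of -2.90 (SE 0.226, edgeR adjusted p = 1.73e-06), miR-144 by -2.83 (SE 0.305, edgeR adjusted p = 1.92e-05) and miR-486 by -1.22 (SE 0.252, edgeR adjusted p = 0.00218). The median of all names on this scale was -1.32, so that relative to it miR-451 was at -1.59, miR-144 at -1.51 and miR-486 at 0.10. With library size alone for scaling, the median moved to -0.53, 204 of 336 called names were higher in plasma instead of 159 of 372, and the call of miR-486 was lost (-0.30, edgeR adjusted p = 0.332). In such bulk samples, fewer cells of a type and less RNA per cell cannot be told apart.

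The diet was first compared within leucocytes, where each of the 3 cows was its own control. MiR-144 fell on HG in 3 of 3 cows, as was seen for 18.9% of the names tested, while the level of miR-451 from the same transcript was not called different. The HG share of miR-144 was 0.488, 0.429 and 0.810 times the FD share in cows 1, 3 and 4, yet the groups overlapped because FD cow 4 was below HG cow 1. The edgeR log2 fold change was -0.85 (SE 0.170, edgeR adjusted p = 0.0252). At that threshold 15 of 778 names were called (1.93%), 12 of them lower on HG (1.54%). With library size alone for scaling, 1 of 12 called names was higher on HG instead of 3 of 15. The call did not survive every setting: the adjusted p was 0.566 with the DESeq2 Wald test and 0.714 with edgeR without the cow as a term, and it was lost without cow 1 (edgeR, 0.360) or cow 3 (edgeR, 0.989). The direction held in each of these. The number of names called was 7 without cow 1, 0 without cow 3 and 100 without cow 4.

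The other 2 members were not called in leucocytes. The log2 fold change of miR-451 was 0.01 (SE 0.105, edgeR adjusted p = 0.990), and its HG share was 0.987, 0.920 and 1.12 times the FD share in cows 1, 3 and 4. MiR-486 was at 0.43 (SE 0.137, edgeR adjusted p = 0.136, unadjusted p = 0.00837), with a higher share on HG in 3 of 3 cows (again 18.9% of names). Its FD and HG levels overlapped. Without cow 4 the fold change was 0.55 and passed the threshold (edgeR adjusted p = 0.000313), whereas without cow 3 the adjusted p was 0.989 in edgeR.

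The human name of miR-451 behaved differently in 1 library. In 5 leucocyte libraries hsa-miR-451a had between 2.57% and 2.75% fewer reads than bta-miR-451. In the HG leucocytes of cow 4 it had 23316 reads beside 7282804 on the bovine name, so that 99.7% of the reads were not on the human name. In 8 of 8 plasma libraries both names had equal reads. The summed level was not touched by this, because the sum equalled the reads of bta-miR-451 in all 14 libraries. A reading of bta-miR-451 alone would have given a log2 fold change of 0.32 on HG in leucocytes (edgeR adjusted p = 0.639) in place of 0.01.

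Within a library, the ratio of miR-144 to miR-451 does not depend on scaling. In leucocytes on FD, miR-144 had 3.14%, 2.45% and 1.68% as many reads as miR-451 in cows 1, 3 and 4, a mean of 2.42% ± 0.733 (SD, n = 3). On HG the ratio was 1.55%, 1.14% and 1.21%, a mean of 1.30% ± 0.218 (SD, n = 3). Every HG value was below every FD value, with HG cow 1 (1.55%) just below FD cow 4 (1.68%). How often ratios of other names would separate in this way was not counted. The log2 ratio was lower on HG in 3 of 3 cows, with differences of -1.02, -1.10 and -0.47 (mean -0.86 ± 0.345 SD, exact two-sided sign-flip permutation test, p = 0.25, the smallest p that 3 cows allow).

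In plasma the same ratio was steadier, although both miRNAs varied more than 3-fold in level. It was 1.95%, 1.27%, 1.86% and 1.77% on FD in cows 1 to 4, a mean of 1.71% ± 0.301 (SD, n = 4), and 1.84%, 1.83%, 2.01% and 1.65% on HG, a mean of 1.83% ± 0.149 (SD, n = 4). The highest ratio was 1.58 times the lowest, against 3.14 times for the miR-451 share and 3.40 times for the miR-144 share. The log2 ratio was higher on HG in cows 2 and 3 and lower in cows 1 and 4, with a mean difference of 0.11 ± 0.289 (SD, n = 4; exact two-sided sign-flip permutation test, p = 0.625). Between plasma and leucocytes the mean log2 ratio over cows differed by 0.015 (exact two-sided permutation test of 4 against 3 cows, p = 0.943).

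**Figure D2:**
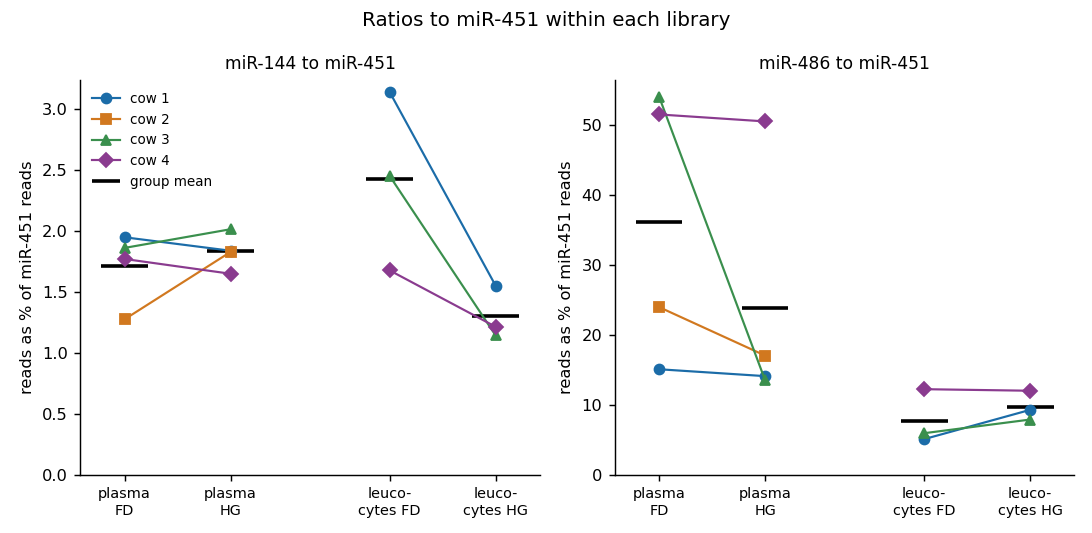
Reads of miR-144 (left) and of the bovine name of miR-486 (right) as a percentage of miR-451 reads in each library, by sample type and diet, with lines that join both diets of a cow and black bars for group means. In leucocytes the miR-144 ratio was 1.68% to 3.14% on FD and 1.14% to 1.55% on HG, and in plasma it stayed between 1.27% and 2.01%.

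In plasma, no name was called between the diets by edgeR (0 of 535, 0%), where 44 names had an unadjusted p under 0.05 and the DESeq2 Wald test called 11 names (2.06%). The cows differed in direction for miR-451, whose HG share was 0.348 times the FD share in cow 1, 3.14 times in cow 3, and 1.03 and 0.974 times in cows 2 and 4. The fitted log2 fold change was -0.36 (SE 0.415, edgeR adjusted p = 0.947). MiR-144 went with it, at 0.328, 1.47, 3.40 and 0.907 times the FD level in cows 1 to 4, with a fitted log2 fold change of -0.25 (SE 0.477, edgeR adjusted p = 0.952). With library size alone both signs flipped, to 0.03 and 0.15, as the median of all names moved from 0.28 to 0.65.

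As a share of miRNA reads, miR-486 was the one member with the same direction in all plasma pairs. This share was lower on HG in 4 of 4 cows, at 0.325, 0.731, 0.783 and 0.955 times the FD level in cows 1 to 4. Of the 535 names tested, 1.12% were lower on HG in every cow and 13.3% were higher in every cow, so the names as a whole leaned upward. The difference in the miR-486 share was -0.673 ± 0.488 percentage points (SD, n = 4; exact two-sided sign-flip permutation test, p = 0.125, the smallest p that 4 cows allow). The fitted log2 fold change was -1.01 (SE 0.379, edgeR adjusted p = 0.516, unadjusted p = 0.0286). The direction in cow 4 depended on the denominator. The reads assigned to miRNAs made up 42.9%, 44.96%, 58.1% and 39.3% of the reads analysed on FD in cows 1 to 4, and 72.0%, 59.9%, 59.3% and 66.8% on HG, so that they were a larger part on HG in 4 of 4 cows. As a share of all reads analysed, miR-486 was at 0.546, 0.974, 0.798 and 1.62 times the FD level, lower on HG in 3 of 4 cows, with a mean difference of -0.00449 percentage points (exact two-sided sign-flip permutation test, p = 1). On that denominator miR-451 and miR-144 were each lower on HG in 1 of 4 cows.

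Between the sample types, the diet effect on miR-486 differed by -1.66 on the log2 scale (SE 0.460, edgeR interaction adjusted p = 0.429, unadjusted p = 0.00350). The difference was -1.01 without cow 1 and -1.01 with library size alone. No name of 796 passed that interaction test in edgeR (0%), 59 had an unadjusted p under 0.05, and DESeq2 called 27. The interaction of miR-144 was 0.48 (SE 0.537, edgeR adjusted p = 1) and that of miR-451 was -0.56 (SE 0.396, edgeR adjusted p = 0.844).

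**Figure D3:**
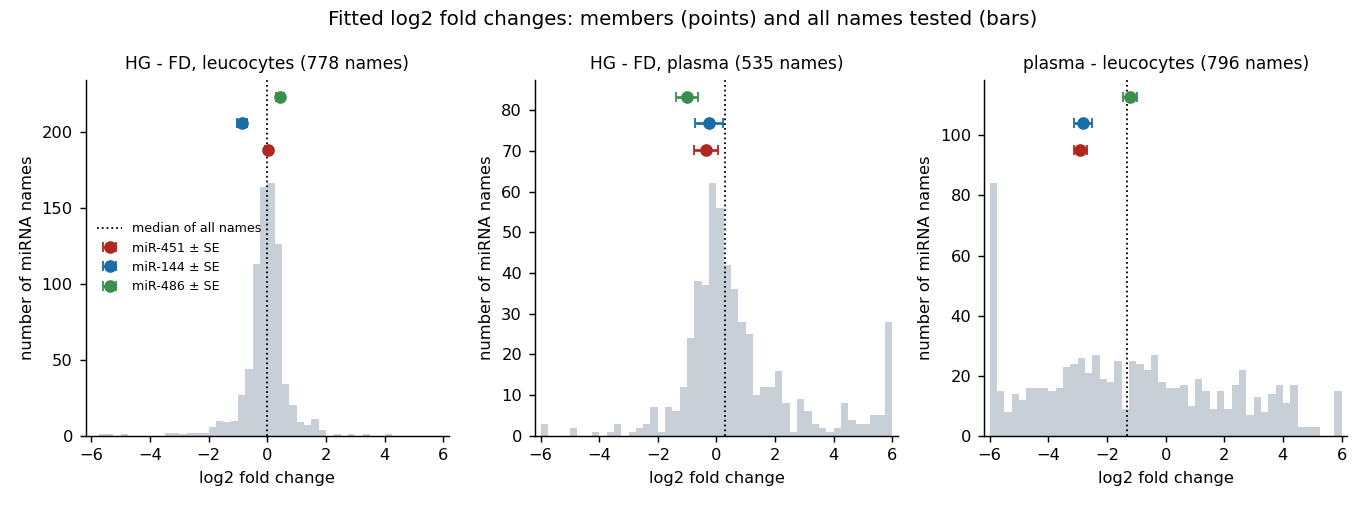
Fitted log2 fold changes of miR-451, miR-144 and miR-486 (points with SE, at arbitrary heights) above the distribution over all names tested (grey bars, number of names, with values beyond 6 in the end bars) and its median (dotted line), for both diet comparisons and for plasma against leucocytes. MiR-144 at -0.85 in leucocytes was the one member called between diets, and miR-451 and miR-144 lay near -2.9 between sample types.

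The levels of miR-451 and miR-144 in plasma fell into separate ranges that went with depth, and each range held libraries of both diets. The 4 plasma libraries with the fewest reads (376589 to 1428225) were the FD libraries of cows 1 and 2 and the HG libraries of cows 2 and 3. In them miR-451 held 12.4% to 13.3% of miRNA reads, against 4.25% to 5.17% in the other 4 (1756778 to 4464702 reads). MiR-144 held 0.158% to 0.268% in the former and 0.0790% to 0.0915% in the latter. Of the 535 names tested in plasma, 12% had all 4 of these shallower libraries above all 4 deeper ones and 5.23% had them below. MiR-486 showed no such split, with 1.80% to 2.98% in the shallower and 0.614% to 2.67% in the deeper libraries. In leucocytes the order was the opposite, since the libraries of cow 4 had both the fewest reads and the lowest miR-451 shares. Whether depth had a part in the plasma levels was not tested.

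**Figure D4:**
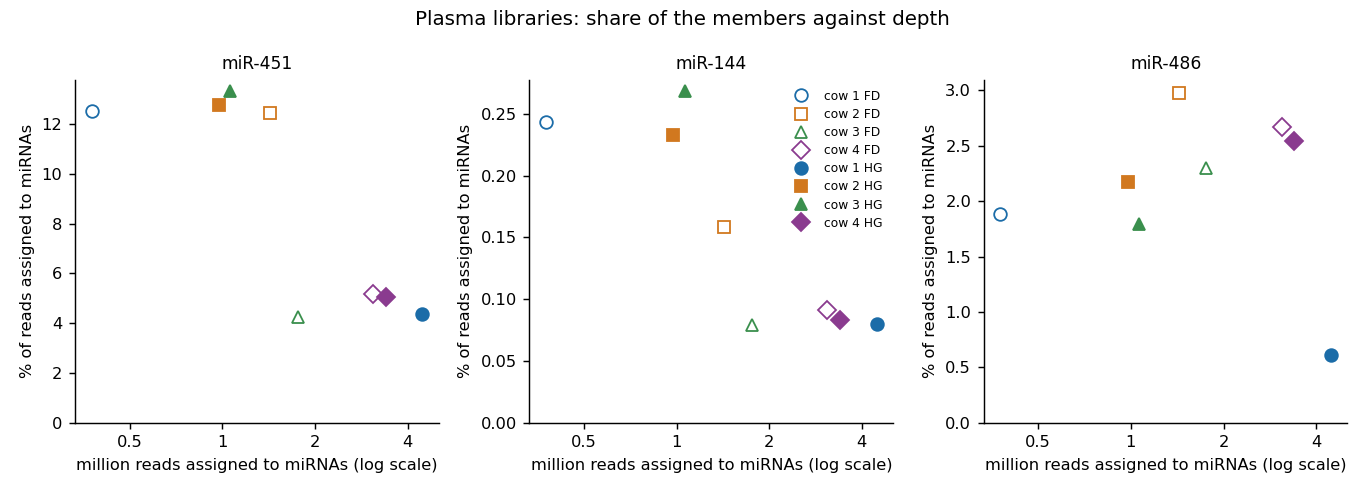
Share of miRNA reads held by each member against the number of reads assigned to miRNAs (log scale) in the 8 plasma libraries, with colours and shapes for cows, open symbols for FD and filled symbols for HG. MiR-451 was at 12.4% to 13.3% in the 4 libraries with the fewest reads and at 4.25% to 5.17% in the other 4, and each set held both diets.

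The ratio of miR-451 to miR-23a, a miRNA whose plasma level changes little when red cells burst, is used as a sign of red cell lysis. It was 12.1, 9.16, 1.93 and 2.22 on FD in cows 1 to 4, and 2.06, 10.3, 11.1 and 2.35 on HG. The values were thus 9.16 to 12.1 in the 4 shallower libraries and 1.93 to 2.35 in the deeper ones, where miR-23a held 2.11% to 2.33% of miRNA reads instead of 1.03% to 1.36%. The log2 ratio changed with diet by 0.06 ± 2.08 (SD, n = 4; exact two-sided sign-flip permutation test, p = 0.75). In leucocytes the ratio was far higher, between 30.9 and 76.4, and the sample types differed by -3.57 on the log2 scale (exact two-sided permutation test of 4 against 3 cows, p = 0.0286, the smallest p it can give, and 0.257 after Benjamini-Hochberg adjustment over 9 ratio tests). Cows 1, 3 and 4 gave both sample types, so the values of this test and of the same test of the other ratios are not independent. Paired over these 3 cows, the difference was -3.91 (exact sign-flip permutation test, p = 0.25, the smallest p they allow).

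The ratio of miR-486 to miR-451 was higher in plasma. Here miR-486 is the part of the bovine name alone, without the equal part of hsa-miR-486-5p, whereas miR-451 is the sum of both names. Counted in full, bta-miR-486 had 80656 reads beside 74590 of miR-451 in FD plasma of cow 3. In plasma of cow 4 it was 164764 beside 159820 on FD and 173150 beside 171268 on HG. In every other library miR-451 had more reads. It was 15.1%, 23.98%, 54.1% and 51.5% on FD in plasma of cows 1 to 4, and 14.1%, 17.05%, 13.5% and 50.5% on HG. In leucocytes it was 5.10%, 5.94% and 12.2% on FD in cows 1, 3 and 4, and 9.29%, 7.90% and 12.0% on HG. No leucocyte library reached the lowest plasma value. The difference between sample types was 1.61 on the log2 scale (exact two-sided permutation test of 4 against 3 cows, p = 0.0571, and 0.257 over the 9 ratio tests), and 1.71 paired over cows 1, 3 and 4 (exact sign-flip permutation test, p = 0.25, the smallest). Between diets the log2 ratio was lower on HG in 4 of 4 cows in plasma (mean -0.65 ± 0.921 SD, exact sign-flip permutation p = 0.125, the smallest), by -0.10, -0.49, -2.002 and -0.03 in cows 1 to 4 and by -0.21 on average without cow 3, and higher in 2 of 3 in leucocytes (0.42 ± 0.446 SD, exact sign-flip permutation p = 0.5).

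Other miRNAs known from red cells were compared with the members over a list of 13 names. In leucocytes none of the 13 was called between the diets, 7 were above 0 and 6 below, and the median log2 fold change was 0.13 beside -0.01 over all names tested. The lowest was bta-miR-183 (-0.56, edgeR adjusted p = 0.339) and the highest bta-miR-185 (0.45, edgeR adjusted p = 0.125). Between sample types, 9 of the 13 were called lower in plasma, beside 26.8% of all names. They ran from bta-miR-15b (-2.92, edgeR adjusted p = 8.64e-06), close to miR-451 and miR-144, to bta-miR-92a (-0.83, edgeR adjusted p = 0.0107), above the median of all names. Between them, bta-miR-16b was at -2.36 (edgeR adjusted p = 1.73e-06) and bta-miR-16a at -1.59 (edgeR adjusted p = 7.38e-05). Called higher in plasma were 3 of the 13, beside 159 of all 796 names. These were bta-miR-182, bta-miR-183 and bta-miR-96, which are cut from 1 cluster of their own and are also made in epithelia and sensory cells. The last name, bta-miR-210, was at 0.79 and was not called (edgeR adjusted p = 0.327). The median of the list was -1.61, beside -1.32 over all names.

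Markers of other cells were present in every library, and no listed name was at 0 in any of them. The 7 leucocyte miRNAs summed to 2.06% to 3.11% of miRNA reads in the leucocyte libraries and 1.47% to 2.52% in plasma. The sums of this and the other lists count bovine names alone. Parts of the reads that went to human names, such as hsa-miR-150-5p, are left out, so the sums are too low. On the same terms, bta-miR-451 without its human name held 12.1% to 26.4% in the leucocyte libraries, more than this whole list. On HG in leucocytes, 5 of the 7 were below 0 and 2 above, namely bta-miR-223 (0.17) and bta-miR-342 (0.16), neither of which was called. Called lower were 2 of the 7, beside 1.54% of all names. These were bta-miR-146a, a brake on inflammatory signalling (-0.83, edgeR adjusted p = 0.00825), and bta-miR-142-3p, which blood cells of all lineages make (-0.60, edgeR adjusted p = 0.0480). The list's median was -0.24. The part of these cells in the fall of miR-144 was not tested.

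The 8 miRNAs of platelets and vessel wall summed, over bovine names alone, to 4.41% to 5.92% in leucocytes and 7.86% to 12.6% in plasma. None was called between diets (median -0.09 in leucocytes and -0.21 in plasma). In plasma, none of the 13 other red cell miRNAs (median -0.02) or of the 7 leucocyte miRNAs (median 0.00) was called between diets either, beside a median of 0.28 over all names. Summed over bovine names alone, the other red cell miRNAs held 4.22% to 6.18% of plasma miRNA reads in the 4 shallower libraries and 2.93% to 4.31% in the 4 deeper ones. The platelet and vessel wall list held 7.86% to 8.66% and 9.60% to 12.6% in the same libraries. Their part in the plasma levels of miR-451 and miR-144 was not tested.

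**Figure D5:**
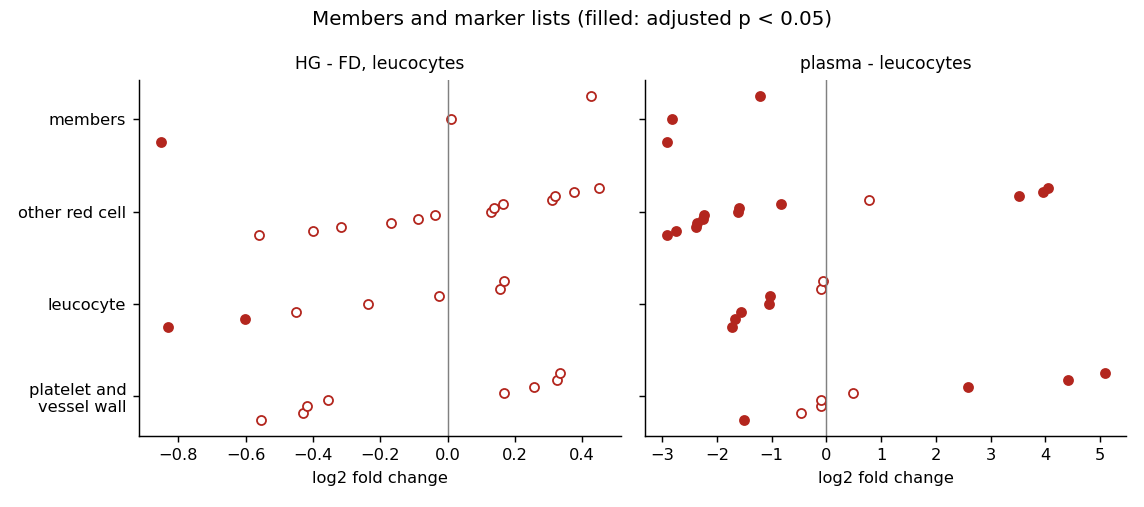
Fitted log2 fold changes of the 3 members, of 13 other red cell miRNAs, of 7 leucocyte miRNAs and of 8 platelet and vessel wall miRNAs, for HG against FD in leucocytes (left) and plasma against leucocytes (right), with filled points at an edgeR adjusted p under 0.05 and heights within a row for legibility only. Between diets 1 member and 2 leucocyte miRNAs were called, all lower, and between sample types all 3 members were lower in plasma.

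The number of distinct read sequences behind a name reflects how varied its ends and bases were, and also how many reads it had. MiR-451 had 1228 to 2726 distinct sequences in leucocytes and 209 to 348 in plasma. The 20 names nearest to it in read count had a median of 493.5 to 851 in leucocytes and 67 to 191 in plasma. MiR-451 was above that median in 6 of 6 leucocyte and 8 of 8 plasma libraries. MiR-486 was too, with 1630 to 2705 and 147 to 377 distinct sequences. Among bovine names, miR-451 ranked 1 in leucocytes and 1 to 6 in plasma, and miR-486 ranked 2 to 5 in leucocytes. Most of their neighbours there thus had fewer reads, so the comparison cannot tell varied ends from more reads. MiR-144 was below the median of its neighbours in 6 of 6 leucocyte libraries, at 190 to 413 against 248 to 728, and above it in 5 of 8 plasma libraries.

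The names whose levels were most like each member across libraries were ranked by Pearson's r of log2 CPM (reads scaled to library size adjusted by TMM factors). This is a measure of likeness with no test, since the libraries are pairs from the same cows and share scaling. The members themselves were left out of the ranking. Over 6 leucocyte libraries and 445 names, miR-451 was most like bta-miR-17-3p (0.99), bta-miR-450a (0.985) and bta-miR-18a (0.983). MiR-144 was most like bta-miR-16b and hsa-miR-16-5p (both 0.989), which share most of their reads, and bta-miR-2285g (0.973), and miR-486 was most like bta-miR-6775 (0.993), bta-miR-2320-5p (0.97) and bta-miR-425-3p (0.924). Over 8 plasma libraries and 192 names, miR-451 was most like bta-miR-15a (0.925), bta-miR-100 (0.912) and bta-miR-15b (0.844), and miR-144 was most like bta-miR-15b (0.89), bta-miR-378 (0.856) and bta-miR-205 (0.812). MiR-486 was most like bta-miR-92a (0.948), another miRNA abundant in red cells, bta-miR-1306 (0.869) and bta-miR-2285bf (0.863). No name was shared between the sample types for any member.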

How the data were processed

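Per the paper's methods, the authors demultiplexed reads with bcl2fastq 2.20 (also in their processing notes), trimmed them with Skewer and assigned them with sRNAbench to UMD3.1 and miRBase. The deposited library files hold read counts (a read counts in full at each name it matches), counts of distinct sequences, expected counts (reads divided among names) and RPM, which the authors scaled to the reads assigned to miRNAs and to all reads analysed. RPM gave the depth of each library. The series tables were not used, nor their 14 columns of per-sample values.

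Expected counts, with bta-miR-451 and hsa-miR-451a summed, were rounded and tested with edgeR 4.0.16 (R 4.3.3; quasi-likelihood, TMM, robust fitting, cow plus diet, or cow plus group over all 14 libraries; names with at least 10 counts in total). Benjamini-Hochberg adjustment ran over all names, with a threshold of 0.05, and the code was tested on simulated data. SE is the log2 fold change divided by the root of F. Single values were tested with exact permutation tests (numpy 2.4.6). DESeq2 1.42.0 was an alternative, with other scalings, filters, names and left-out cows. Log2 CPM used a prior count of 2, and names ranked by likeness had at least 10 counts in every library. The smallest depth (376589 reads) makes 3 reads, the limit that a count of 0 allows, worth 7.97 RPM. The edgeR p-values set a difference against the spread between these libraries, and the permutation p-values count relabellings of these samples. Neither can tell diet from time.

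Cow letters are in the titles of leucocyte samples. The plasma cow numbers follow the study's supplementary table, whose 504 of 504 values equalled the read counts. Deviations correlated by 0.454 to 0.664 within cows in leucocytes, where they were -0.614 to 0.314 between cows. For plasma the range was -0.519 to 0.434 for libraries of 1 cow and -0.646 to 0.747 for libraries of different cows, so the plasma profiles do not show the pairing and the values per cow rest on the authors' numbering. No pair of libraries was identical (0 pairs). The members, lists and tests were chosen with earlier results of these data known. Named miRNAs are the members, the lists, the 3 names most like each member and the products of the same precursors. Within the lists, single names were picked after their values were seen. Mature sequences are not printed.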

Additional observations from a re-analysis of the deposited data

Results flagged for a closer look

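The diet effect on miR-486 had opposite signs in the sample types. Its share of miRNA reads was lower on HG in 4 of 4 plasma pairs and higher in 3 of 3 leucocyte pairs. As a share of all reads analysed it was lower in 3 of 4 plasma pairs, with a mean difference of -0.00449 percentage points (exact sign-flip permutation test, p = 1). The difference of the fitted log2 fold changes, plasma minus leucocytes, was -1.66 and did not pass the edgeR interaction test (adjusted p = 0.429).

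The change of the miR-144 to miR-451 ratio with diet was also compared between the sample types. The log2 ratio changed by -0.86 on average in leucocytes and by 0.11 in plasma, a difference of 0.97. An exact two-sided permutation test of the paired differences of 4 plasma cows against 3 leucocyte cows gave p = 0.0286, the smallest p it can give, and 0.0857 after Benjamini-Hochberg adjustment over the 3 ratios. This test was chosen after the values were seen, and the cows overlap between the sample types.

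By Dixon's criterion at 95% for 4 samples, which divides the gap between an extreme sample and its neighbour by the whole range, none of the 12 sets of plasma shares and log2 ratios examined held a sample past the critical value, where chance alone would give about 1 in 20. The nearest were the HG miR-486 to miR-451 ratio, with cow 4 highest (0.823 of the range), the FD miR-144 to miR-451 ratio, with cow 2 lowest (0.774), and the HG miR-486 share, with cow 1 lowest (0.613).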

How the results depend on the processing

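Of the fitted and counted results, the fall of miR-144 between sample types, that of miR-451 and the direction of miR-144 between diets in leucocytes held under all settings run. The direction of the fitted miR-486 values also held under all of them, between diets in each sample type, between sample types and in the interaction. Between diets in plasma and in the interaction, miR-486 was not called under any setting. Of 221 values other than those with a cow left out, 198 were classed as the same. For fitted fold changes this meant the same direction and side of the threshold. For ratios and shares it meant the same direction alone, and for counts of called names a similar count. In leucocytes the miR-144 log2 fold change on HG was not past the threshold with the DESeq2 Wald test (-0.858), with human names added (-0.876), with names of identical counts taken once (-0.824), without cow as a replicate block (-0.969) or, chosen after seeing the data, with scaling on names other than the members (-0.819). That of miR-451, near 0, changed sign with library size alone (-0.0066), no filter (-0.0431), 10 counts in every library (-0.0269), human names added (-0.0107) and no block (-0.0159). With library size alone, the miR-486 difference between sample types was -0.296, the plasma diet values were 0.152 for miR-144 and 0.0273 for miR-451, and the interactions were 0.0492 for miR-451 and -1.01 for miR-486. With all reads analysed as the denominator, the plasma miR-486 share differed by -0.00449 percentage points instead of -0.673.

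The 15 names called in leucocytes became 28 with 10 counts in every library, 23 with undivided reads, 9 with human names added, 6 with scaling on other names, 5 with identical counts taken once and 0 without the block. Without the pairing by cow no other call of a member was lost. DESeq2 called 11 names between diets in plasma and 27 in the interaction, and 194 names were called between sample types with 10 counts in every library. The cause of these changes was not tested.

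With each cow left out in turn, the leucocyte log2 fold changes ranged from -1.15 to -0.634 for miR-144 (not past the threshold without cow 1 or 3), from 0.243 to 0.552 for miR-486 and from -0.0861 to 0.108 for miR-451. The calls there ranged from 0 (without cow 3) to 100 (without cow 4), with 7 without cow 1. The interaction of miR-144 ranged from -0.0597 to 0.965 and that of miR-486 from -1.91 to -1.01. The miR-486 to miR-451 log2 ratio in plasma ranged from -0.864 to -0.206. The miR-144 to miR-451 log2 ratio ranged from -0.0241 to 0.183 between diets in plasma and from -0.115 to 0.151 between sample types. The miR-451 to miR-23a log2 ratio ranged from -0.0800 to 0.273 between diets in leucocytes and from -0.767 to 0.926 in plasma. In percentage points, the miR-451 share ranged from -1.58 to 1.18 between diets in leucocytes and from -2.65 to 3.09 in plasma, and the miR-144 share in plasma from -0.0325 to 0.0852.

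With 3 or 4 cows the exact paired tests cannot pass 0.05, and the plasma libraries had fewer reads and the members larger errors there than in leucocytes.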
